A study of Homo sapiens with 6 samples.

Results

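The transcripts of the mitochondrial genome were followed in RNA-seq of human cells that overexpress a catalytically inactive form of the exoribonuclease DIS3L2. The members were all transcripts whose gene identifier has a symbol beginning with MT-, which gave 13 mRNAs, 2 rRNAs and 22 tRNAs, 37 of the 207167 transcripts in the table. Each of the 37 genes has 1 transcript, and all 37 passed the filter on low values, a mean of at least 1 RPKM (reads scaled by transcript length and library size) over the 6 libraries.

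The study had 3 libraries of cells that overexpress DIS3L2 with the D391N substitution in its catalytic site and 3 libraries of control cells. The sample labels name the line HEK293, an embryonic kidney line. The study's methods name HEK293T-Rex, in which doxycycline induces a stably integrated construct. Each condition is a single cell line, so the construct and the line cannot be told apart, and the study's text does not say whether the controls received doxycycline. No label says that the replicates were separate cultures, so the p-values measure the spread between these libraries, which may be technical. In bulk RNA a lower level per cell, fewer mitochondria and fewer cells cannot be told apart.

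The human mitochondrial genome is a small circle transcribed on both strands into long polycistronic RNAs. Most mRNAs and both rRNAs are flanked by tRNAs, and these are cut out by mitochondrial RNase P at the 5′ end and by ELAC2 at the 3′ end, which frees the RNAs between them. Because all genes of a strand share a precursor, differences in level between them largely arise after transcription, except that the rRNAs can be made in excess. DIS3L2 itself is known as a cytoplasmic 3′ to 5′ exoribonuclease that degrades RNAs with added uridines.

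The sequences of 7 tRNA genes are shown because tRNAs were the class that differed most in level between the libraries. The first 5 are the tRNAs whose levels in the D391N and control libraries did not overlap, and the last 2, MT-TI and MT-TF, are the tRNAs with the smallest fitted differences. They are written 5′ to 3′ as DNA, on the strand of the gene, from the GENCODE transcripts, with the anticodon in capitals. Their positions on the mitochondrial chromosome, the same in GRCh37 and GRCh38, are given on each line.
MT-TQ (glutamine, chrM:4329-4400, minus strand): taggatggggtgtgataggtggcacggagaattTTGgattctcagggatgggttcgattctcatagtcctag
MT-TS2 (serine, chrM:12207-12265, plus strand): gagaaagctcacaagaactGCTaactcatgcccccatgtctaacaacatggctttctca
MT-TY (tyrosine, chrM:5826-5891, minus strand): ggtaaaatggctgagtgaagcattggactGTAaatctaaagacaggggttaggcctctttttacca
MT-TL1 (leucine, chrM:3230-3304, plus strand): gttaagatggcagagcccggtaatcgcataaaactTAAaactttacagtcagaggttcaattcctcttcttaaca
MT-TM (methionine, chrM:4402-4469, plus strand): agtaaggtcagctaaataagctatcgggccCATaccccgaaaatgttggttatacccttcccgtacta
MT-TI (isoleucine, chrM:4263-4331, plus strand): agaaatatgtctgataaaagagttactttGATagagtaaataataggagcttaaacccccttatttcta
MT-TF (phenylalanine, chrM:577-647, plus strand): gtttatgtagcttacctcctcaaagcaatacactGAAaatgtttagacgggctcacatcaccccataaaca
The 22 tRNA genes are between 59 and 75 nt long, so a read of 50 nt can start at only 10 to 26 positions in them. Their GC content runs from 23.1% to 49.3%. The CCA end that mature tRNAs carry is added after processing, and 1 of the 22 genomic sequences, that of MT-TY, happens to end in these bases.

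By the posterior variance, the libraries held an estimated 19.8 to 33.6 M reads, an estimate that takes in counting and read division but not the spread between cultures. Mitochondrial RNA took 5.08% to 10.1% of the reads in the D391N libraries and 4.61% to 8.62% in the controls, so the total did not separate the conditions. DIS3L2, summed over its transcripts, was at 369, 467 and 512 RPKM in D391N replicates 1 to 3 and at 11.8, 12.9 and 14.6 RPKM in the controls, as the labels state. Of the HEK293 markers, LIN28B, NEFL and VIM were at 15.8 RPKM or more in each library, GATA3 and PAX2 were between 1.31 and 6.66 RPKM, and NEFM stayed under 1 RPKM. The markers of other cell types lay at or below 7.12 RPKM, the value of HBB in its highest library. Nuclear RNAs under 200 nt held a share of 2.27%, 0.333% and 1.49% of reads in D391N replicates 1 to 3 and 2.74% to 3.03% in the controls. Each D391N library thus lay below each control, replicate 2 the furthest, and results for short RNAs are given with the libraries side by side.

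None of the 37 transcripts passed an adjusted p under 0.05 (limma on log2(RPKM + 0.1), Benjamini-Hochberg over 54671 transcripts). Of all transcripts tested, 33 passed (0.0604%), and 0.0402% passed as lower in D391N. At an unadjusted p under 0.05, 10 of the 37 were lower in D391N, 8 tRNAs and the mRNAs MT-CO3 and MT-ND3, and none were higher, though with quantile normalization 5 tRNAs were lower and the mRNAs MT-CO1 and MT-ND4L were higher. Over all transcripts 10.7% were lower and 6.86% higher at that p. The count of 10 depended on the libraries used. It was 25 without D391N replicate 1, where 16.3% of all transcripts were lower, and 4 and 3 without D391N replicates 2 and 3. It was 2, 4 and 3 without control replicates 1, 2 and 3. In 7 of the 37 each D391N library lay below each control library, 18.9% against 15.6% of all transcripts, and in 0 of the 37 above, against 10.1% of all transcripts.

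**Figure D1:**
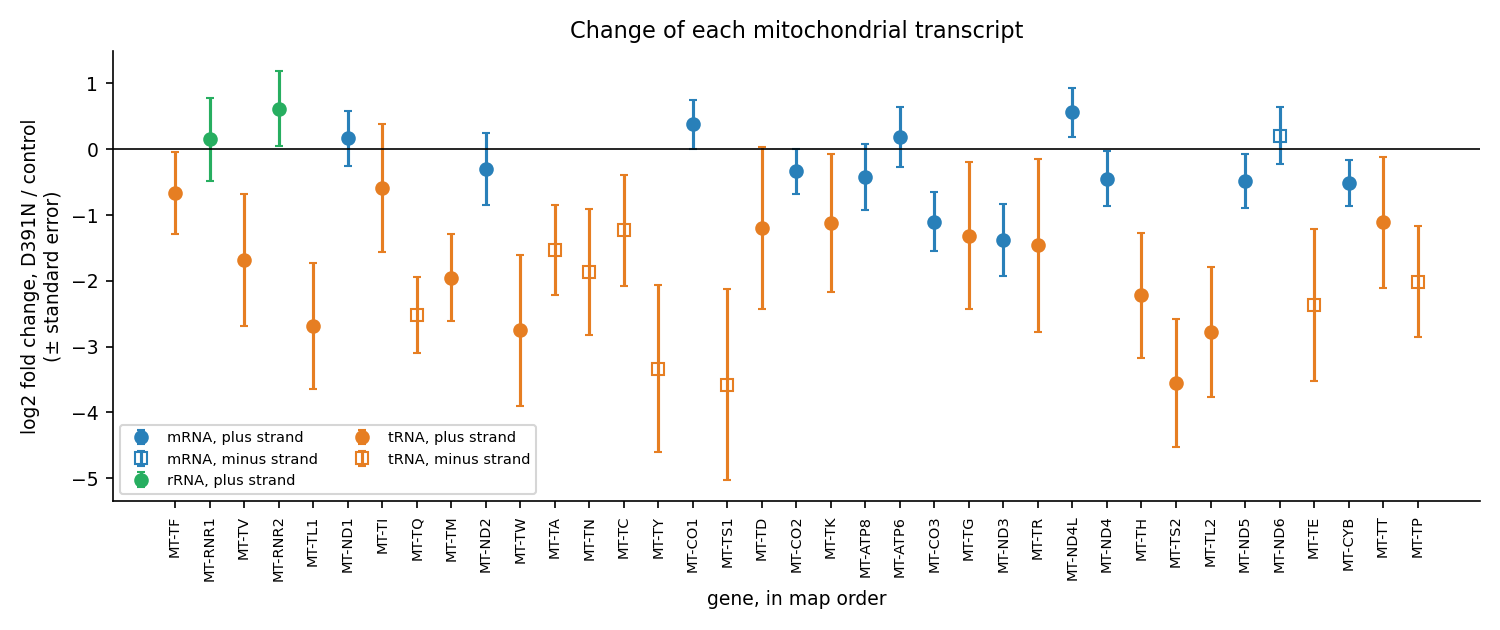
Fitted log2 change of D391N against control (vertical axis, with its standard error) for the 37 mitochondrial transcripts in map order (horizontal axis), with the class in colour and minus-strand genes as open squares. All 22 tRNAs lie below 0, from -3.58 to -0.59, while the mRNAs lie between -1.38 and 0.56 and the 2 rRNAs are at 0.15 and 0.61.

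The rRNAs are the RNA of the small and the large subunit of the mitochondrial ribosome. MT-RNR1, the small-subunit 12S rRNA (ENST00000389680, chrM:648-1601, plus strand), was at 19059.7, 6782 and 13065 RPKM in D391N replicates 1 to 3 and at 7308, 8764 and 19207 RPKM in the controls. The conditions overlap throughout, with D391N replicate 2 the lowest library and control replicate 3 the highest. The mean was 12969 ± 6139 RPKM in D391N and 11759.8 ± 6491 RPKM in controls (SD, n = 3 each), and the log2 change, the fitted log2 fold difference of D391N from control, was 0.15 (standard error 0.63, limma adjusted p = 0.918). MT-RNR2, the large-subunit 16S rRNA (ENST00000387347, chrM:1671-3229, plus strand), was at 36202, 19693 and 23833 RPKM in D391N and at 11800.0, 15869 and 25262 RPKM in controls. Its means were 26576 ± 8589 RPKM and 17644 ± 6904 RPKM (SD, n = 3 each), a log2 change of 0.61 (standard error 0.57, limma adjusted p = 0.596). RNA was depleted of rRNA with a kit before sequencing, so these levels are of what was left, and the share of reads on them varied within each condition, from 3.62% to 7.68% in D391N and from 2.62% to 5.93% in controls.

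The 13 mRNAs encode subunits of the respiratory chain and ATP synthase, and 8 were lower and 5 higher in D391N by their fitted values (2 lower and 11 higher with quantile normalization), with a median log2 change of -0.34 against -0.072 over all transcripts tested. None passed the test, with limma adjusted p between 0.265 and 0.861. In 2 of the 13, MT-CO3 and MT-ND3, each D391N library lay below each control, 15.4% against 15.6% of all transcripts tested. The reads behind each mRNA value numbered at least 761, so counting error is small beside the spread between libraries.

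**Figure D2:**
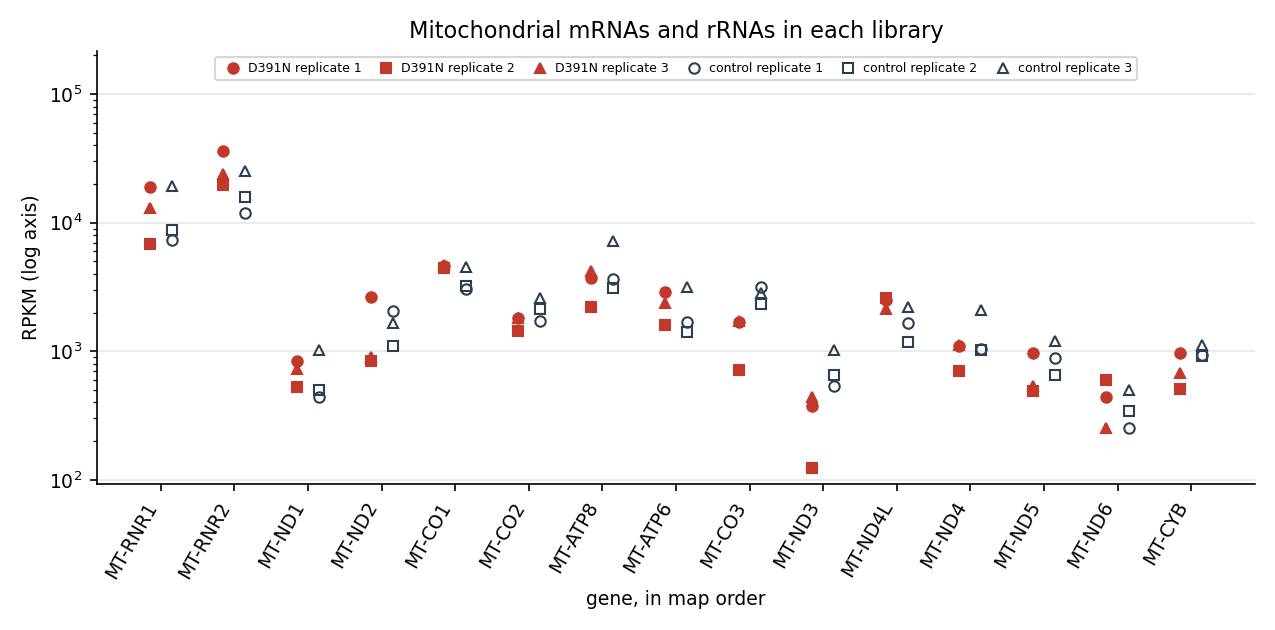
Level in RPKM (vertical log axis) of the 2 rRNAs and 13 mRNAs in map order (horizontal axis) in each library, with filled symbols for D391N, open symbols for control and the shape for the replicate number. MT-CO3 and MT-ND3 are the genes with all D391N libraries below all controls, 15.4% of the 13 mRNAs, near the 15.6% of all transcripts tested.

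Of complex I, the NADH dehydrogenase that starts the electron transport chain, 7 subunits are encoded here, and their median log2 change was -0.30, with 4 lower and 3 higher. MT-ND3 (ENST00000361227, chrM:10059-10404, plus strand) was at 374, 124 and 437 RPKM in D391N and at 538, 653 and 1026 RPKM in controls. All D391N libraries lay below all controls, and replicate 2 was the lowest. Its means were 312 ± 166 RPKM and 739 ± 255 RPKM (SD, n = 3 each), and its log2 change of -1.38 (standard error 0.55) was the lowest among the mRNAs (limma adjusted p = 0.265). MT-ND4L (ENST00000361335, chrM:10470-10766), the next mRNA on the same strand after the tRNA MT-TR, went the other way, at 2511, 2590.1 and 2146 RPKM in D391N and 1656, 1178 and 2228 RPKM in controls. Only control replicate 3 overlapped the D391N libraries, and the log2 change was 0.56 (standard error 0.38, limma adjusted p = 0.459). MT-ND4 (ENST00000361381, chrM:10760-12137), which shares a transcript with MT-ND4L, was at 1104, 701 and 1118 RPKM in D391N and 1037, 1025 and 2078 RPKM in controls, a log2 change of -0.45 (standard error 0.42, limma adjusted p = 0.596). Here the difference of the means rests largely on control replicate 3 and D391N replicate 2.

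MT-ND1 (ENST00000361390, chrM:3307-4262) was at 833, 530.4 and 732 RPKM in D391N and at 444, 504 and 1026 RPKM in controls, a log2 change of 0.17 (standard error 0.42, limma adjusted p = 0.861). MT-ND2 (ENST00000361453, chrM:4470-5511) was at 2639, 845 and 902 RPKM in D391N and at 2063, 1094 and 1670.3 RPKM in controls, a log2 change of -0.30 (standard error 0.54, limma adjusted p = 0.799). In both the libraries of the conditions overlap, and for MT-ND2 D391N replicate 1 was the highest of the 6. MT-ND5 (ENST00000361567, chrM:12337-14148) was at 966, 492 and 536 RPKM in D391N and 891, 651 and 1198 RPKM in controls, with a log2 change of -0.48 (standard error 0.40, limma adjusted p = 0.556). MT-ND6 (ENST00000361681, chrM:14149-14673) is the mRNA encoded on the minus strand, and was at 442, 596 and 251 RPKM in D391N and 251, 342 and 503 RPKM in controls, with a log2 change of 0.21 (standard error 0.43, limma adjusted p = 0.832). For MT-ND5 D391N replicates 2 and 3 lay below the controls and replicate 1 within them, while for MT-ND6 the conditions cover nearly the same range.

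MT-CYB, the cytochrome b subunit and the only gene here of complex III (ENST00000361789, chrM:14747-15887), was at 974, 506 and 675 RPKM in D391N and at 942, 921 and 1109.6 RPKM in controls. Replicates 2 and 3 lay below the controls and replicate 1 within them, and the log2 change was -0.51 (standard error 0.35, limma adjusted p = 0.467).

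Complex IV, cytochrome c oxidase, has 3 subunits encoded here, and the data differed between them. MT-CO3 (ENST00000362079, chrM:9207-9990) was at 1692, 721 and 1723 RPKM in D391N and 3144, 2345 and 2819.7 RPKM in controls. Each D391N library lay below each control, with means of 1379 ± 569.7 RPKM and 2769 ± 402 RPKM (SD, n = 3 each) and a log2 change of -1.10 (standard error 0.45, limma adjusted p = 0.275). MT-CO1 (ENST00000361624, chrM:5904-7445), the catalytic subunit and the highest mRNA in D391N, was at 4632, 4428 and 4726 RPKM there, its libraries close together at 4595 ± 152 RPKM (SD, n = 3). Its controls were at 3074, 3195 and 4490.4 RPKM, and control replicate 3 lay within the D391N range (log2 change 0.38, standard error 0.37, limma adjusted p = 0.620). MT-CO2 (ENST00000361739, chrM:7586-8269) was at 1822, 1435 and 1807 RPKM in D391N and at 1726, 2121 and 2592 RPKM in controls, which overlap, with a log2 change of -0.34 (standard error 0.34, limma adjusted p = 0.634).

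The ATP synthase subunits MT-ATP8 and MT-ATP6 are read from overlapping frames of 1 mRNA. MT-ATP8 (ENST00000361851, chrM:8366-8572) was at 3679.6, 2210.2 and 4228 RPKM in D391N and at 3662, 3118 and 7205 RPKM in controls, with a log2 change of -0.42 (standard error 0.50, limma adjusted p = 0.685). MT-ATP6 (ENST00000361899, chrM:8527-9207) was at 2890.2, 1611 and 2385 RPKM in D391N and at 1682, 1422 and 3139.6 RPKM in controls, with a log2 change of 0.19 (standard error 0.45, limma adjusted p = 0.854). Both overlap between the conditions, and MT-ATP8 was the highest mRNA of the controls. MT-ATP6 shares reads with the nuclear copy MTATP6P1, which is described with the ratios, so its level depends on how the authors' estimate divided those reads.

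The order of the mRNAs by level was alike in all libraries. Within the controls the mean levels ran 12.8-fold from MT-ATP8 down to MT-ND6, and in all 12 pairs of neighbours in that order the libraries overlapped. In D391N they ran 14.7-fold from MT-CO1 down to MT-ND3, and 11 of 12 pairs overlapped. The Spearman correlation of the 13 levels was 0.901 to 0.945 between control libraries, 0.907 to 0.923 between D391N libraries and 0.731 to 0.951 between a D391N and a control library. These correlations describe genes of the same libraries. Among the 12 mRNAs of the plus strand, position along the map had a Spearman correlation of -0.26 with the mean level in controls and -0.37 in D391N.

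All 22 tRNAs were lower in D391N by their fitted values, with a median log2 change of -1.91 and a range from -3.58 to -0.59, and none passed the test (limma adjusted p between 0.140 and 0.779). For 20 of 22 the fitted value was lower by more than 1 on the log2 scale, against 14.5% of all transcripts tested. The libraries did not share this equally: D391N replicates 2 and 3 each lay below each control in 22 of 22 tRNAs, where 26.0% of all transcripts did, while D391N replicate 1 lay above the controls in 8 tRNAs, within them in 9 and below them in 5. The sum over the 22 tRNAs was 22569, 1400.3 and 3333 RPKM in D391N replicates 1 to 3 and 21081, 12506 and 20981 RPKM in the controls. Replicate 1 was thus the highest of the 6 libraries in this sum, and the other D391N libraries the lowest. MT-TV alone gave 12694 RPKM of the sum in replicate 1. By the median over the 22 tRNAs, replicate 1 lay within the controls, at 217 RPKM against 271, 166 and 251 RPKM.

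**Figure D3:**
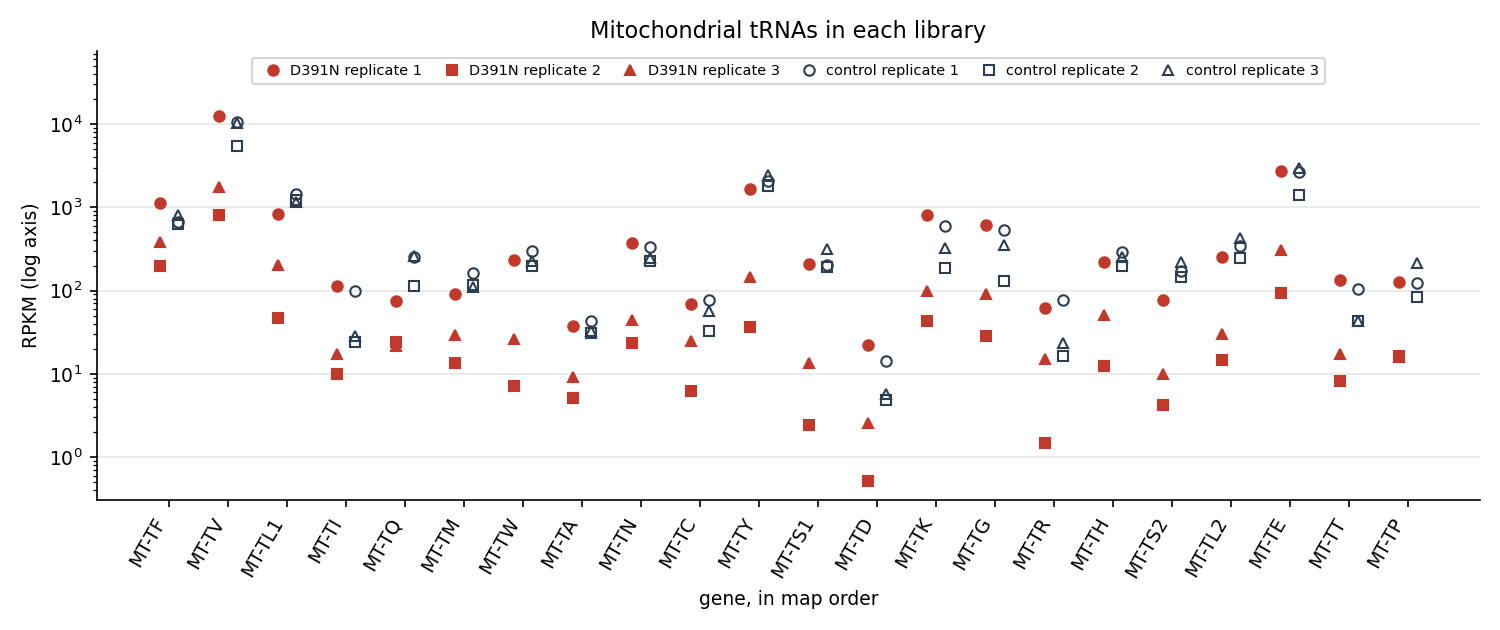
Level in RPKM (vertical log axis) of the 22 tRNAs in map order (horizontal axis) in each library, with filled symbols for D391N, open symbols for control and the shape for the replicate number. D391N replicates 2 and 3 lie below the controls for each tRNA, and D391N replicate 1 lies among the controls for many of them.

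For 5 tRNAs all D391N libraries lay below all controls, 22.7% of the 22 where 15.6% of all transcripts did. MT-TQ (ENST00000387372), the tRNA for glutamine, was at 75.8, 24.1 and 21.5 RPKM in D391N and at 251, 113 and 260.4 RPKM in controls. Replicate 1, though the highest of its condition, was below the lowest control. The mean was 40.5 ± 30.6 RPKM in D391N and 208 ± 82.9 RPKM in controls (SD, n = 3 each), and the log2 change was -2.51 (standard error 0.58, limma adjusted p = 0.140). MT-TS2 (ENST00000387449), a tRNA for serine, was at 76.6, 4.22 and 9.93 RPKM in D391N and at 171, 144 and 218 RPKM in controls, a log2 change of -3.55 (standard error 0.98, limma adjusted p = 0.175). About 4.06 reads lie behind its value in D391N replicate 2, and at least 248 behind each control value.

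MT-TY (ENST00000387409), the tRNA for tyrosine, was at 1650.0, 36.3 and 146 RPKM in D391N and at 2068, 1784 and 2459.9 RPKM in controls. Its D391N libraries span a far wider range than the controls, and replicate 1 was just below the lowest of them. The log2 change was -3.34 (standard error 1.27, limma adjusted p = 0.252). MT-TL1 (ENST00000386347), a tRNA for leucine that follows the rRNAs, was at 841, 46.8 and 202 RPKM in D391N and at 1456, 1242 and 1168 RPKM in controls, a log2 change of -2.69 (standard error 0.96, limma adjusted p = 0.234). MT-TM (ENST00000387377), the tRNA for methionine, was at 91.4, 13.6 and 28.9 RPKM in D391N and at 164, 116 and 111 RPKM in controls, a log2 change of -1.95 (standard error 0.66, limma adjusted p = 0.220). In both the controls lie close together and the D391N libraries spread widely below them.

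Of the other tRNAs with an unadjusted p under 0.05, MT-TS1 (ENST00000387416, serine, chrM:7446-7514, minus strand) had the lowest fitted value of all members. It was at 211, 2.44 and 13.5 RPKM in D391N and at 206, 192 and 319 RPKM in controls, a log2 change of -3.58 (standard error 1.45, limma adjusted p = 0.272). Replicate 1 lay within the controls, and an estimated 2.19 reads lie behind the value in replicate 2, under the floor of 3 reads. MT-TW (ENST00000387382, tryptophan, chrM:5512-5579) was at 231, 7.09 and 26.2 RPKM in D391N and at 297, 199.99 and 224 RPKM in controls, a log2 change of -2.75 (standard error 1.15, limma adjusted p = 0.282). MT-TL2 (leucine, chrM:12266-12336) was at 256, 14.8 and 30.2 RPKM in D391N and at 345, 248 and 433 RPKM in controls, a log2 change of -2.77 (standard error 0.99, limma adjusted p = 0.233). The same order held in the D391N libraries of all 3 tRNAs, replicate 1 highest and replicate 2 lowest.

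The tRNAs with high levels showed the same division of libraries. MT-TV (valine, ENST00000387342, chrM:1602-1670), which lies between the rRNAs and was the highest tRNA in both conditions, was at 12694, 806 and 1768 RPKM in D391N and at 10512, 5472 and 10368 RPKM in controls. Replicate 1 was above all controls and the other D391N libraries were below all of them, and the log2 change was -1.68 (standard error 1.005, limma adjusted p = 0.412). MT-TE (glutamate, ENST00000387459, chrM:14674-14742, minus strand) was at 2728, 94.3 and 311 RPKM in D391N and at 2657, 1390.0 and 3011 RPKM in controls, a log2 change of -2.37 (standard error 1.16, limma adjusted p = 0.333). MT-TF (phenylalanine, ENST00000387314), the gene that begins the map, was at 1124, 195 and 386 RPKM in D391N and at 659, 629 and 818 RPKM in controls, a log2 change of -0.67 (standard error 0.63, limma adjusted p = 0.600). Its D391N libraries varied the least among the tRNAs after those of MT-TQ.

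MT-TI (isoleucine, ENST00000387365) had the smallest fitted difference, at 115, 9.89 and 17.2 RPKM in D391N and at 98.4, 24.2 and 28.3 RPKM in controls, a log2 change of -0.59 (standard error 0.98, limma adjusted p = 0.779). MT-TD (aspartate, chrM:7518-7585) was the lowest tRNA in both conditions, at 21.9, 0.509 and 2.54 RPKM in D391N and at 14.4, 4.90 and 5.68 RPKM in controls. Its values in D391N replicates 2 and 3 rest on under 3 reads each by the posterior variance, so its log2 change of -1.19 (standard error 1.23, limma adjusted p = 0.637) depends on the pseudocount. The remaining 9 tRNAs (MT-TA, MT-TN, MT-TC, MT-TK, MT-TG, MT-TR, MT-TH, MT-TT and MT-TP, with log2 changes of -1.53, -1.87, -1.23, -1.12, -1.31, -1.46, -2.22, -1.11 and -2.01 in this order) had overlapping libraries, with D391N replicate 1 within or above the controls.

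The tRNAs also differed in spread. The fold between the highest and the lowest D391N library had a median of 17.6 over the 22 tRNAs and of 1.91 over the mRNAs. Over the 19 tRNAs with at least 3 estimated reads in each library, which leaves out MT-TS1, MT-TD and MT-TR, the median was 16.4, from 3.53 for MT-TQ to 45.4 for MT-TY. In the controls these medians were 1.83 and 1.89, and no tRNA exceeded 4.74. The mean levels ran 1054-fold from MT-TV to MT-TD in the controls and 612-fold between the same tRNAs in D391N, where the mean of MT-TD rests on replicate 1. Of the 21 pairs of neighbours in that order, the libraries overlapped in 15 in the controls and in 21 in D391N. The Spearman correlation of the 22 levels between libraries was 0.922 to 0.960 within the controls, 0.842 to 0.904 within D391N and 0.726 to 0.954 between the conditions. Across the 22 tRNAs, all measured in the same libraries, the log2 change had a Spearman correlation of -0.027 with length, -0.46 with GC content, -0.33 with the control level, -0.16 with map order and 0.42 with the predicted folding energy, where a lower energy is a more stable fold.

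Set against the mRNAs of the same library, the tRNAs of D391N replicates 2 and 3 were lower by a wide margin. The median log2(RPKM + 0.1) of the tRNAs minus that of the mRNAs was -2.96, -5.66 and -5.34 in D391N replicates 1 to 3 and -2.61, -2.74 and -3.05 in the controls. Replicate 1 lay within the control range. The means were -4.65 ± 1.47 and -2.80 ± 0.23 (SD, n = 3 each), a difference of -1.85. The median log2 difference from the mean of the controls was 0.13, -0.85 and -0.23 for the mRNAs of D391N replicates 1 to 3, 0.97, -0.21 and 0.40 for the rRNAs, and 0.19, -3.45 and -2.25 for the tRNAs. The order of the replicates was the same in each class, with replicate 1 highest and replicate 2 lowest.

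Nuclear short RNAs moved with the tRNAs in the same libraries. The same difference for 304 snoRNA transcripts was -0.085, -2.81 and -1.56 in D391N replicates 1 to 3, and for 609 snRNA transcripts it was -0.56, -2.33 and -1.75. By contrast, the 884 other nuclear transcripts under 200 nt were at 0.034, -0.18 and -0.51, and 25333 nuclear transcripts of 1000 nt or more had a median fitted log2 change of -0.065. The part of RNA length, library preparation or recovery of short RNA in the lower tRNA values was not tested.

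**Figure D4:**
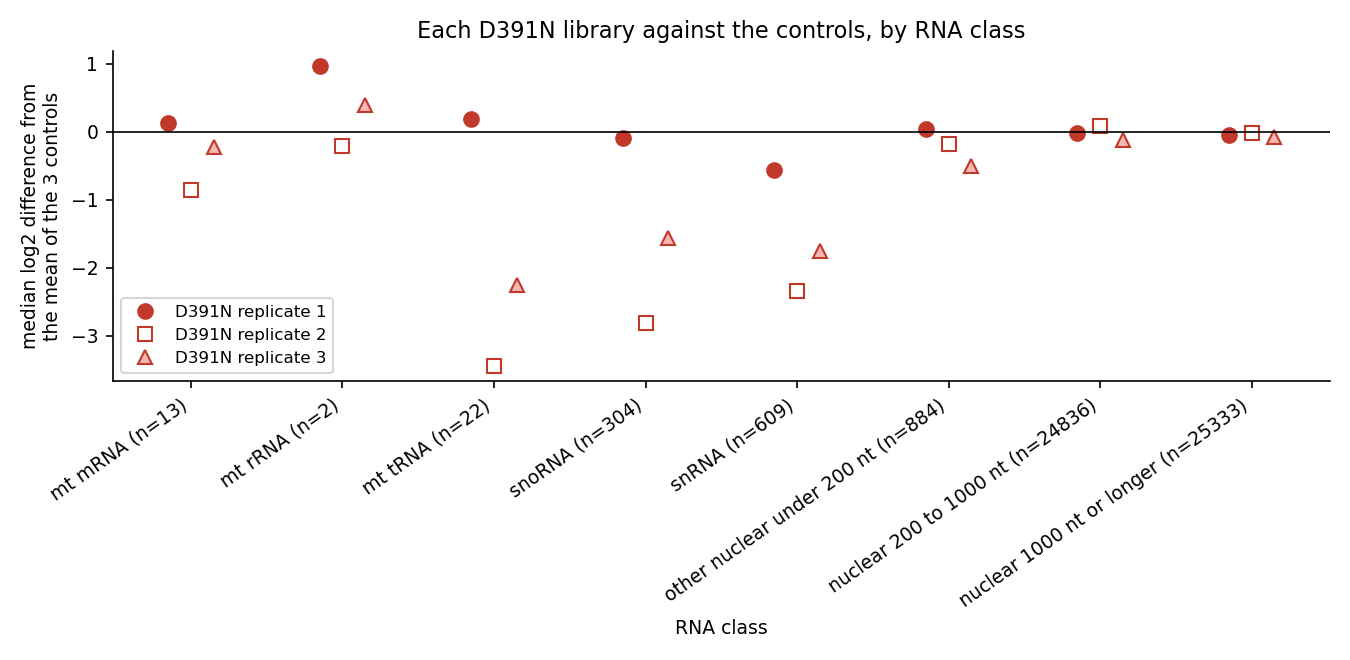
Median log2 difference of each D391N library from the mean of the 3 controls (vertical axis) for mitochondrial and nuclear RNA classes (horizontal axis, with the number of transcripts tested). Mitochondrial tRNAs, snoRNAs and snRNAs are lowest in replicate 2 (-3.45, -2.81 and -2.33), then in replicate 3, and nearest to the controls in replicate 1.

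By strand of origin, the 14 tRNAs of the plus strand had a median log2 change of -1.57 and the 8 of the minus strand -2.19. Within a library, the median of the minus-strand tRNAs minus that of the plus-strand tRNAs was -0.47, 0.58 and -0.35 in D391N and -0.37, -0.16 and 0.099 in controls, which overlap, and the conditions differed by 0.065 in the mean. Whether the reads were counted by strand is not given in the sources used here, so a minus-strand gene may hold reads of the RNA opposite to it.

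Ratios of 4 pairs of neighbours were compared, since a ratio within a library does not change when all its values are multiplied by 1 factor. With 3 libraries against 3 a two-sided exact permutation test cannot go below p = 0.10, and values adjusted over the 4 ratios cannot either. MT-RNR2 to MT-RNR1 was 1.90, 2.904 and 1.82 in D391N and 1.61, 1.81 and 1.32 in controls, higher in all D391N libraries than in any control by a margin that was narrow for D391N replicate 3. The means were 2.21 ± 0.603 and 1.58 ± 0.250 (SD, n = 3 each), a log2 difference of 0.46 (two-sided exact permutation p = 0.10, adjusted 0.133). With quantile normalization, which is not a single factor, the ratio was 1.45, 4.73 and 1.26 in D391N and 1.64, 1.42 and 1.83 in controls, and the conditions overlapped (two-sided exact permutation p = 0.90). Both levels are of what the depletion of rRNA left, and whether it removed both rRNAs equally in each library was not tested. MT-ND4L to MT-ND4 was 2.27, 3.69 and 1.92 in D391N and 1.597, 1.15 and 1.07 in controls, also without overlap. Its means were 2.63 ± 0.939 and 1.27 ± 0.284 (SD, n = 3 each), a log2 difference of 1.01 (two-sided exact permutation p = 0.10, adjusted 0.133). These frames overlap by 7 bases at chrM:10760-10766, fewer than a read can lie in.

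MT-ATP8 to MT-ATP6 was 1.27, 1.37 and 1.77 in D391N and 2.18, 2.19 and 2.29 in controls, with the controls close together and each D391N library below them. The means were 1.47 ± 0.265 and 2.22 ± 0.0640 (SD, n = 3 each), a log2 difference of -0.61 (two-sided exact permutation p = 0.10, adjusted 0.133). This separation was also lost with quantile normalization (two-sided exact permutation p = 0.20), where D391N replicate 2 was at 1.904 and control replicate 3 at 1.78. The frames share 46 bases at chrM:8527-8572 of the plus strand, shown here because this stretch is part of both genes, with the start codon of MT-ATP6 in capitals.
overlap of MT-ATP8 and MT-ATP6: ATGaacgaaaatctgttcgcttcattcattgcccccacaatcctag
No read of 50 nt lies wholly within it. MT-ND6 to MT-ND5, neighbours on opposite strands, was 0.458, 1.21 and 0.469 in D391N and 0.282, 0.525 and 0.420 in controls. The conditions overlap, replicate 2 stands apart, and the log2 difference was 0.69 (two-sided exact permutation p = 0.40, adjusted 0.40).

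**Figure D5:**
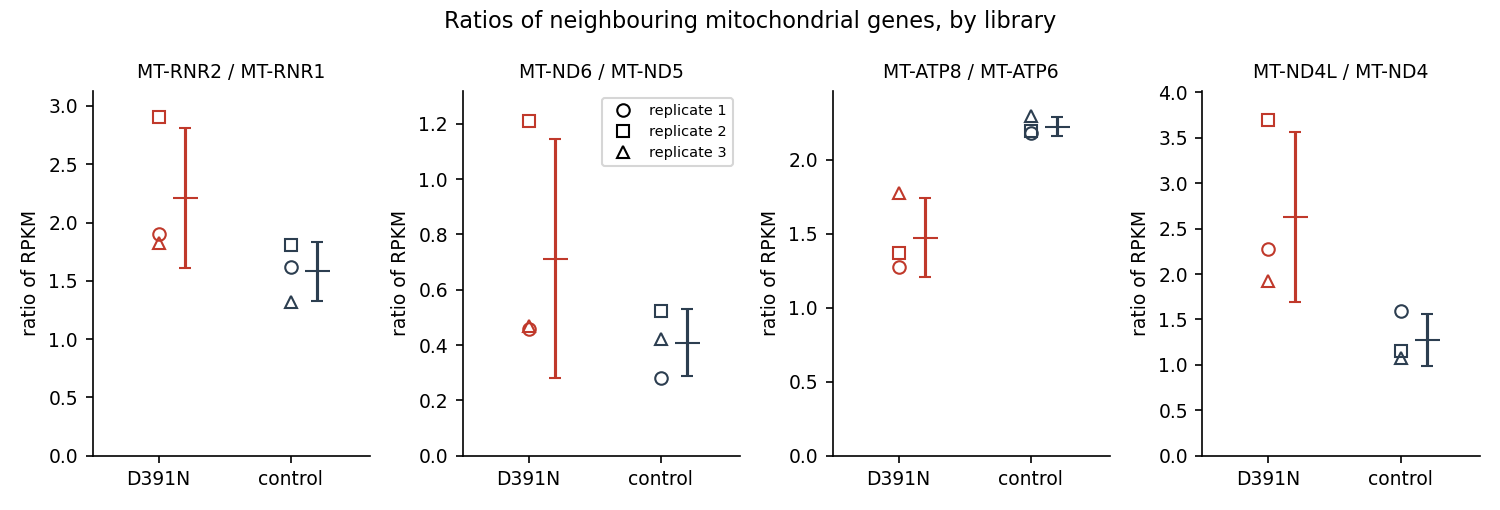
Ratio of the RPKM of neighbouring mitochondrial genes (vertical axes, linear from 0) in each D391N and control library, with the shape for the replicate number and the mean ± SD (n = 3) beside the points. MT-ATP8 to MT-ATP6 is lower and MT-RNR2 to MT-RNR1 and MT-ND4L to MT-ND4 are higher in all D391N libraries than in any control, while MT-ND6 to MT-ND5 overlaps; with quantile normalization only MT-ND4L to MT-ND4 stays without overlap.

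Copies of mitochondrial genes lie in the nuclear genome, and reads that match both are divided by the estimate. Of 395 such transcripts, 4 had a mean of at least 10 RPKM, and all together they equalled 0.919% to 1.80% of the summed mitochondrial level. MTATP6P1, a pseudogene copy of MT-ATP6, matches it in 671 of 681 positions (98.5%). It was at 992, 672 and 529 RPKM in D391N and at 382, 398 and 826 RPKM in controls, a log2 change of 0.50 (limma adjusted p = 0.569), and it held 18.2% to 29.4% of the sum of the pair in D391N and 18.5% to 21.9% in controls. With MTATP6P1 added to MT-ATP6, a setting chosen after seeing the data, the ratio of MT-ATP8 was 0.948, 0.968 and 1.45 in D391N and 1.77, 1.71 and 1.82 in controls, again without overlap. MTRNR2L1, MTND2P28 and MTCYBP18, copies of MT-RNR2, MT-ND2 and MT-CYB, had log2 changes of -1.43, 1.02 and -1.83 (limma adjusted p = 0.443, 0.368 and 0.305).

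Genes of the nucleus supply the enzymes that make, cut and degrade mitochondrial RNA, and 53 of them had 242 transcripts tested. None of the 242 passed the threshold (limma, adjusted p under 0.05), while 15 were higher and 27 lower at an unadjusted p under 0.05, which is 6.20% and 11.2% of them, near the 6.86% and 10.7% of all transcripts. By list, the transcripts higher and lower at that p were 1 and 3 of 26 for transcription, 4 and 6 of 65 for RNA processing, 3 and 7 of 45 for stability and decay, 4 and 8 of 75 for tRNA maturation and 3 and 3 of 31 for rRNA modification. Summed per gene, 8 of the 53 were above and 8 below the controls in each D391N library, 15.1% each, against 10.5% and 20.7% of all genes.

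Values of named factors are on the gene level, with no test. POLRMT, the mitochondrial RNA polymerase, was at 8.83, 7.35 and 7.06 RPKM in D391N and at 13.01, 13.8 and 16.4 RPKM in controls, with each D391N library below each control. TFAM, which packages mitochondrial DNA and takes part in promoter recognition, was at 102, 133 and 181 RPKM in D391N and at 99.0, 103 and 76.1 RPKM in controls, where D391N replicate 1 overlaps the controls. TRMT10C, a subunit of mitochondrial RNase P, was at 40.1, 49.8 and 63.7 RPKM in D391N and at 35.1, 31.0 and 26.3 RPKM in controls, with each D391N library above each control. The same held for PNPT1, the polynucleotide phosphorylase of mitochondrial RNA decay, at 75.8, 84.2 and 67.2 RPKM in D391N and 49.5, 52.3 and 37.3 RPKM in controls. For TRMT10C the difference lay in ENST00000495642, at 24.9, 37.9 and 46.1 RPKM in D391N and 18.5, 14.2 and 14.1 RPKM in controls. Its other transcript, ENST00000309922, overlapped between the conditions (log2 change -0.033). ELAC2, which cuts tRNA 3′ ends, was at 72.2 ± 11.0 RPKM in D391N and 61.6 ± 8.25 RPKM in controls (SD, n = 3 each) with overlapping libraries. LRPPRC, which with SLIRP stabilizes mitochondrial mRNAs, was at 163 ± 33.7 RPKM and 146 ± 3.75 RPKM, and SLIRP at 121 ± 23.8 RPKM and 131 ± 28.8 RPKM (SD, n = 3 each), both with overlapping libraries. Single transcripts of TFAM, ELAC2, LRPPRC and SLIRP lay apart from the controls. SLIRP ENST00000553981, LRPPRC ENST00000409659 and ELAC2 ENST00000395962 were lower in D391N (log2 changes -2.48, -0.55 and -1.55). Higher were ELAC2 ENST00000584650 and ENST00000578071 (2.03 and 2.59), LRPPRC ENST00000447246 (0.56) and TFAM ENST00000373895 (0.47). Over all transcripts tested, 15.6% had each D391N library below each control and 10.1% above.

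The count of mitochondrial transcripts past the threshold rested on D391N replicate 1. Without it, 15 of the 37 passed, all of them tRNAs and all lower in D391N, where 9.07% of all transcripts passed, 5.23% as lower and 3.84% as higher. The lowest adjusted p among these was for MT-TS2 (log2 change -4.74, limma adjusted p = 0.0065), and MT-TY had -4.84 (limma adjusted p = 0.013). Of the 242 factor transcripts 21 passed in that setting, 8.68%. Leaving out any other single library gave 0 of the 37.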

How the data were processed

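RNA-seq of 3 libraries of D391N-expressing and 3 of control cells was used. Per the study's methods, the authors depleted total RNA of rRNA, sequenced 50-nt single-end reads, trimmed adapters with cutadapt, aligned with Segemehl to coding and non-coding Ensembl transcripts and estimated levels with BitSeq. Per the labels the build was hg38. Reads of uncut precursors that lie within a gene count toward it. The deposited values are the natural log of RPKM as a posterior mean, and its posterior variance, a score of uncertainty in the deposited table, for 207167 transcripts of 63190 genes. All value columns were assigned to a library.

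The exponential of each value gave RPKM, analysed as log2(RPKM + 0.1), a scale that shrinks fold changes of low transcripts. Transcripts averaging 1 RPKM or more over the libraries, 54671 in all, were tested by limma 3.58.1 (empirical Bayes with trend) in R 4.3.3 with Benjamini-Hochberg adjustment, without covariates. Single ratios had a two-sided exact permutation test, computed in R. Spearman correlations were computed with scipy 1.17.1. Reads behind a value were estimated from its posterior variance. Symbols were found for 88.2% of genes. tRNA sequences are from GENCODE transcripts, and folding energies from ViennaRNA 2.7.2. Tables and plots used matplotlib 3.10.9, numpy 2.4.6 and pandas 2.3.3 under Python 3.11.15. On simulated data over 54671 transcripts, a log2 change of 3 was called for 20% of 100 transcripts and a log2 change of 1 for 0% of 100, with 1 false call, so a count of 0 does not show that nothing changed.

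The members, lists and ratios were chosen with earlier results of these data known. The genes named are all mitochondrial genes, factors past the threshold, 7 factors given as values, nuclear copies averaging 10 RPKM or more and DIS3L2. Alternatives were other pseudocounts, filters, scalings, weights, a replicate block, no trend and each library left out. The authors' differential expression by BitSeq was not repeated. Of the factor symbols searched, C12orf65 was not matched.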

Additional observations from a re-analysis of the deposited data

How the results depend on the processing

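Each result was recomputed under up to 18 settings, 817 values in all, of which 783 kept their direction and their side of the threshold or moved by less than the spread between libraries. This count does not measure robustness. The exact test of the ratios cannot go below p = 0.10, so a ratio could be counted as changed only by its sign. Other filters, no trend and the replicate block leave the fitted log2 changes of the members as they were. The medians of the tRNAs, the tRNA minus mRNA difference and all 4 ratios kept their sign throughout. With quantile normalization the libraries of the conditions overlapped for MT-RNR2 to MT-RNR1 (log2 difference 0.34, two-sided exact permutation p = 0.90) and for MT-ATP8 to MT-ATP6 (-0.40, p = 0.20), and stayed apart for MT-ND4L to MT-ND4 (1.48, p = 0.10). Quantile normalization moved the median log2 change of the mRNAs to 0.37 and of the rRNAs to 1.29, and it turned MT-ND2, MT-CO2, MT-ATP8, MT-ND4, MT-ND5 and MT-CYB to 0.22, 0.37, 0.62, 0.16, 0.14 and 0.10. Directions for single mRNAs therefore depend on the scaling, while the tRNA median was -1.83 in it. The cause was not tested.

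Leaving out single libraries gave ranges of -0.56 to -0.11 for the mRNA median, 0.091 to 0.74 for the rRNA median, -2.91 to -1.12 for the tRNA median, -2.70 to -1.35 for the tRNA minus mRNA difference and -0.26 to 0.26 for the difference between tRNA strands. The log2 differences ranged from 0.25 to 0.58 for MT-RNR2 to MT-RNR1, 0.23 to 0.93 for MT-ND6 to MT-ND5, -0.75 to -0.51 for MT-ATP8 to MT-ATP6 and 0.74 to 1.21 for MT-ND4L to MT-ND4. Members lower at an unadjusted p under 0.05 numbered 2 to 25, against 10 with all libraries. Transcripts past the threshold numbered 0 to 15 of the members and 0 to 21 of the factors, the higher counts without D391N replicate 1. The sign turned for MT-RNR1 without D391N replicate 1 (-0.19), for MT-ND6, MT-TI and MT-TD without D391N replicate 2 (-0.074, 0.13 and 0.024), for MT-ND1, MT-ND6, MT-RNR1 and MT-TI without control replicate 1 (-0.067, -0.036, -0.12 and 0.043) and for MT-ATP6 without control replicate 2 (-0.043). The other ends of these ranges were 0.57 for MT-RNR1, 0.55 for MT-ND6, -1.64 for MT-TI, -2.56 for MT-TD, 0.54 for MT-ND1 and 0.53 for MT-ATP6.

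Libraries with the same number deviated from their group means with correlations of 0.087, 0.055 and -0.11, and those with unlike numbers with -0.133 to 0.075. These values show no pairing by replicate number, but with 3 libraries in each group they cannot exclude it. With the replicate block 0 of the 37 members passed the threshold, 14 tRNAs had an unadjusted limma p under 0.05, and the transcripts past the threshold in the whole table fell from 33 to 7. In the whole table they numbered 142 with pseudocount 1, 24 with pseudocount 0.01, 52 without trend, 54 with library weights and 46 with quantile normalization. Low read counts limit some tRNA values: MT-TS1, MT-TD and MT-TR had under 3 estimated reads in D391N replicate 2. MT-TS1 is not a low tRNA in the controls, where its mean was 239 RPKM. No group of 3 libraries was tested for single outlying samples.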
